A study of Saccharomyces cerevisiae with 24 samples.

Results

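Heme deficiency was studied in MHY100, a haploid MATa strain of the yeast *Saccharomyces cerevisiae* whose *HEM1* gene carries the hem1-Δ100 mutation, so that its heme supply is set by the 5-aminolevulinic acid added to the medium. The arrays described are the 6 MHY100 arrays of the 24 arrays in the series, chosen by strain and dose: 3 of heme-deficient cells (2.5 µg/ml 5-aminolevulinic acid) and 3 of heme-sufficient cells (250 µg/ml). Both groups shared the mutant alleles of *URA3*, *LEU2*, *HIS4* and *ADE1* that the strain also carries, both were grown in synthetic complete medium, and the dose is the only difference the labels give. The labels give 1 mutant strain for all 6 arrays, with no strain of intact *HEM1* beside it on this array type. The paper's text speaks of a replicate made in another strain without naming its arrays, and the methods describe separately grown cultures for the RNA samples of a dose. The other 18 arrays hold strain L51, in which the *HAP1* gene was studied, on another Affymetrix array type, and enter only near the end.

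Heme, an iron-bearing porphyrin, is the cofactor of the cytochromes of the respiratory chain, of catalase and peroxidase, of flavohemoglobin and of the cytochrome P450 enzymes of sterol synthesis. Yeast makes it from 5-aminolevulinic acid, the product of Hem1, by steps that need oxygen late in the pathway, and the cell reads heme as a stand-in for oxygen. With heme the activator Hap1 and the Hap4-containing HAP complex turn on respiratory genes, and Hap1 also turns on *ROX1*, whose product represses the hypoxic genes, those used when oxygen is scarce.

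The values are log2 intensities, for which a step of 1 is a 2-fold change, and changes are heme-deficient minus heme-sufficient with a standard error (SE, n = 3 arrays a group). The adjusted p-values come from limma with the Benjamini-Hochberg method over all 5656 genes, and a gene is said to have risen or fallen where its adjusted p was under 0.05. A background level was taken on each array as the 90th percentile of 30 genes of α cells and of meiosis, which MATa haploid cells do not use, and it lay between 6.11 and 6.51. A gene under it on all 3 arrays of a group has a bound ("at least N-fold") in place of a fold change. The bound sets the mean of the brighter group against the mean background level, or the gene's own level where that is higher, of the other group. Genes above this level made up 56.7, 63.0 and 65.8% of genes on the heme-deficient arrays 1, 2 and 3, against 66.5, 66.1 and 69.8% on the heme-sufficient arrays, so the groups did not overlap in this measure. Of the 30 genes that set this level 27 had a positive change, with a median of 0.18, against a median of -0.06 over all genes. The part of these differences in the results was not tested. As a sign of RNA integrity, the signal of the *ACT1* control probe set at the 3′ end over that at the 5′ end was 2.35, 2.39 and 2.31 on the heme-deficient and 2.54, 2.16 and 2.05 on the heme-sufficient arrays, and the groups overlapped. The ratio lay over 2 on all 6 arrays. The methods name that same value as the limit above which arrays were replaced, with no statement of how the ratio was computed there.

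Of 5656 genes 93 (1.64%) passed the test, 23 higher (0.407%) and 70 lower (1.24%) in heme-deficient cells. All 93 had groups that did not overlap, and in 30 of them the measured values differed at least 4-fold, 7 upward and 23 downward. Among these 30, *HES1*, *COA2*, *CYB2*, *CTR3*, *ECM13* and *INH1* had values under background and bounds under 4-fold, as given below. For 5 of the 6 arrays the run records give the hybridization round. Round 1 held heme-deficient replicate 2 and heme-sufficient replicate 2, and round 2 held heme-deficient replicate 1 and heme-sufficient replicates 1 and 3; no round is known for heme-deficient replicate 3. All 93 genes had the same direction within both rounds, which groups that do not overlap must have, so it is no further check. All 23 risers and 57 of the 70 fallers changed more in round 2 than in round 1. With the round as a block, on the 5 arrays and with 2 residual degrees of freedom, 981 genes passed, 237 higher (4.19%) and 744 lower (13.2%), and these included all 93. Without heme-sufficient replicate 3 the count dropped to 18, without heme-sufficient replicate 1 to 34 and without heme-sufficient replicate 2 to 45. The 18 genes that passed in all 6 fits that left out 1 array were *DAN1*, *ANB1*, *TIR2* and *FET4*, which rose, and *CYC1*, *COX7*, *NDE1*, *QCR6*, *COA2*, *RIP1*, *CYB2*, *COX5A*, *HMG1*, *YGK1*, *CTT1*, *NSG2*, *ADI1* and *SCM4*, which fell.

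**Figure D1:**
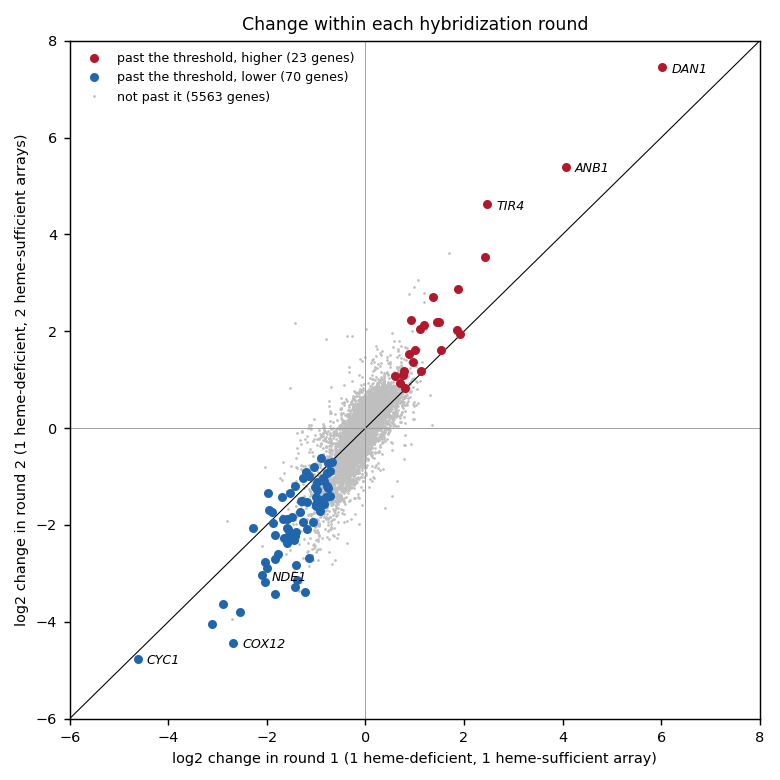
Log2 change (heme-deficient minus heme-sufficient) of each gene within round 1 (horizontal axis, 1 heme-deficient and 1 heme-sufficient array) and within round 2 (vertical axis, 1 heme-deficient and 2 heme-sufficient arrays), with the line of equal change. The 23 genes that rose lie in the upper right and the 70 that fell in the lower left, as groups that do not overlap must. All 23 risers lie above the line.

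Genes of the respiratory chain and ATP synthase were pooled from 6 lists, chosen with earlier results of these data known. The lists of dehydrogenases, complexes II, III and IV, cytochrome *c* and ATP synthase together held 56 measured genes. Of these 19 fell and none rose, against 1.24% of all genes that fell. The median change was -1.17, beside -0.06 over all genes. With the round as a block 40 of the 56 fell and none rose, against 13.2% of all genes that fell with it. Taken singly, the list with the most fallers was that of heme proteins (9 of 19), which shares some genes with these lists.

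Electrons enter the yeast chain through dehydrogenases on the inner membrane. *NDE1*, the NADH dehydrogenase that faces the cytosol, had log2 intensities of 8.38, 9.10 and 7.87 in heme-deficient cells, against 11.44, 11.19 and 11.40 in heme-sufficient cells. The groups lay more than 2 units apart, a change of -2.89 ± 0.29 (adjusted p = 0.00346), or 7.43-fold lower, with -2.09 in round 1 and -3.04 in round 2. *CYB2* encodes the L-lactate dehydrogenase of the intermembrane space, itself a heme protein, and stood at 5.52, 5.50 and 5.04 in heme-deficient cells, against 7.30, 7.38 and 7.66 in heme-sufficient cells. All its heme-deficient arrays were under background, and it was at least 2.12-fold lower (adjusted p = 0.00342). *DLD1*, for D-lactate dehydrogenase, changed by -1.16 ± 0.19 (adjusted p = 0.0275). Of the 8 dehydrogenases 3 fell, and the number was between 2 (without heme-sufficient replicate 1, 2 or 3) and 3 (without heme-deficient replicate 1, 2 or 3) in the fits that left out 1 array. *GUT2* (-1.03), *DLD2* (-1.04) and *NDI1* (-0.73) had negative changes that did not pass and that passed with the round as a block, while *DLD3*, the cytosolic D-lactate enzyme, had a change of 0.95 that did not pass.

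Complex II, succinate dehydrogenase, had no member past the test: its 8 genes changed by -1.06 (*SDH7*) to -0.16 (*SDH1*), with a median of -0.70, all 8 negative. With the round as a block *SDH7* and *SDH5* fell. The genes of the tricarboxylic acid cycle had a median of -0.15 over 12 measured genes and none passed; the largest change was 0.76 for *IDH1*, a subunit of isocitrate dehydrogenase, which rose with the round as a block (adjusted p = 0.0458).

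Complex III passes electrons from ubiquinol to cytochrome *c*. Its 9 nuclear genes had a median member level of 7.05, 8.59 and 8.06 in heme-deficient cells, against 10.13, 9.78 and 9.95 in heme-sufficient cells, and every member had non-overlapping groups, against 16.7% of all genes that lay lower without overlap. Of the 9 genes 6 fell, the median change was -2.11 and the smallest was -1.14 (*QCR2*). *CYT1*, cytochrome *c*1, the heme subunit encoded in the nucleus, had 6.93, 7.09 and 6.11 in heme-deficient cells, against 8.57, 8.01 and 8.72 in heme-sufficient cells. Its change was -1.72 ± 0.30 (adjusted p = 0.033), with -0.92 in round 1 and -1.72 in round 2. *RIP1*, the Rieske iron-sulfur subunit, had 9.40, 9.66 and 9.02 in heme-deficient cells, against 11.44, 11.21 and 11.77 in heme-sufficient cells, a change of -2.11 ± 0.22 (adjusted p = 0.00415). A separate control probe set for *RIP1*, not used in the test over genes, changed by -2.14. *QCR10*, *QCR6* and *QCR9*, small subunits, changed by -2.79 ± 0.31 (adjusted p = 0.00563), -2.45 ± 0.28 (adjusted p = 0.00599) and -2.26 ± 0.40 (adjusted p = 0.0388), and the core subunit *COR1* by -1.60 ± 0.30 (adjusted p = 0.0483). *QCR8* (-2.18), *QCR7* (-1.81) and *QCR2* did not pass (adjusted p = 0.0774, 0.0841 and 0.0622); all 9 fell with the round as a block. The number that fell was between 2 (without heme-sufficient replicate 3) and 9 (without heme-deficient replicate 2) in the fits that left out 1 array. Among 9 assembly genes of the complex only *CBP6*, a translation factor for cytochrome *b*, fell (at least 1.11-fold, adjusted p = 0.0427), and their median was -0.45, or -0.28 with *CBP6* at its bound. *CBP6* passed in 0 of the 6 fits that left out 1 array.

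Cytochrome *c* carries electrons from complex III to complex IV and exists as 2 isoforms. *CYC1* (YJR048W), for the main isoform, had the largest fall of all genes. Its log2 intensities were 5.33, 4.92 and 4.43 in heme-deficient cells, against 10.42, 9.54 and 9.76 in heme-sufficient cells. The heme-deficient values lay under background on every array, so *CYC1* was at least 11.7-fold lower (adjusted p = 0.000342), and the measured difference was -4.62 in round 1 and -4.76 in round 2. *CYC7*, for the minor isoform, had 5.46, 5.90 and 6.47 in heme-deficient cells, against 7.01, 7.83 and 7.28 in heme-sufficient cells, with no overlap between groups and a change of -1.43 ± 0.30 (adjusted p = 0.0651) that did not pass, though it fell with the round as a block (adjusted p = 0.00272). *CYC3* and *CYT2*, the lyases that attach heme to cytochromes *c* and *c*1, changed by -0.38 and -0.24 without passing, with 95% intervals of -0.93 to 0.17 and -0.62 to 0.15.

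Complex IV, cytochrome *c* oxidase, holds hemes *a* and copper in subunits of the mitochondrial genome and surrounds them with nuclear subunits. Of its 9 measured nuclear genes 6 fell and the median was -2.08. *COX7* stood at 6.97, 8.22 and 7.75 in heme-deficient cells, against 10.79, 11.33 and 11.25 in heme-sufficient cells, a change of -3.47 ± 0.31 (adjusted p = 0.00342). *COX12* stood at 7.69, 9.50 and 9.26 in heme-deficient cells, against 12.05, 12.18 and 12.22 in heme-sufficient cells, a change of -3.33 ± 0.42 (adjusted p = 0.00868), and its change was -2.68 in round 1 and -4.44 in round 2. On heme-deficient replicate 1 both genes were lowest. *COX4*, *COX13*, *COX5A* and *COX6* changed by -2.45 ± 0.35 (adjusted p = 0.0139), -2.11 ± 0.36 (adjusted p = 0.033), -2.07 ± 0.22 (adjusted p = 0.00476) and -1.88 ± 0.30 (adjusted p = 0.0232). *COX8* (-2.08) and *COX9* (-1.58) did not pass and fell with the round as a block. *COX5B*, the hypoxic isoform of subunit 5, was the only member with a positive change (0.71 ± 0.26 (adjusted p = 0.226)). The number that fell was between 2 (without heme-sufficient replicate 1 or 3) and 8 (without heme-deficient replicate 1) in the fits that left out 1 array.

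Complex IV is put together by many assembly factors. None of 24 passed and their median was -0.08, although *COX17*, the copper chaperone of the oxidase, had 5.00, 6.68 and 6.98 in heme-deficient cells, against 7.50, 8.63 and 8.30 in heme-sufficient cells, a change of -1.92 ± 0.51 (adjusted p = 0.14) that passed with the round as a block (adjusted p = 0.00373). Outside the lists, *COA2*, another assembly factor of the oxidase, named here after its values were seen, had 4.97, 4.80 and 4.50 in heme-deficient cells, against 6.82, 7.07 and 7.24 in heme-sufficient cells and was at least 1.6-fold lower (adjusted p = 0.00256). Genes of the mitochondrial genome had a median of -0.09 over 8 measured, 4 positive and 4 negative, and none passed, but 6 of the 8 (*COX1* was not one of them) were under background on all 6 arrays. *COX1*, for the subunit that binds heme *a*, had the largest change, -1.23 ± 0.38 (adjusted p = 0.194), and fell with the round as a block (adjusted p = 0.0228). The other 7 did not pass in either fit.

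ATP synthase uses the proton gradient that the chain builds. All 17 of its genes had negative changes, 15 of them without overlap, with a median of -1.12 (-1.10 with *ATP20* at its bound). Of these 3 fell: *INH1*, the inhibitor that stops the enzyme from running backwards (-2.51 ± 0.37 (adjusted p = 0.0158), at least 3.5-fold lower against the background level, under which 2 of its 3 heme-deficient arrays lay), *ATP20*, a subunit of its dimer (at least 1.98-fold lower, adjusted p = 0.00868), and *ATP15*, the ε subunit (-1.12 ± 0.21 (adjusted p = 0.0475)). With the round as a block 13 of 17 fell, and the number was between 0 (without heme-sufficient replicate 3) and 6 (without heme-deficient replicate 2) in the fits that left out 1 array without the block. *ATP1* and *ATP2*, for the catalytic head, had the changes nearest 0 beside *STF2* (-0.28, -0.50 and -0.50).

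**Figure D2:**
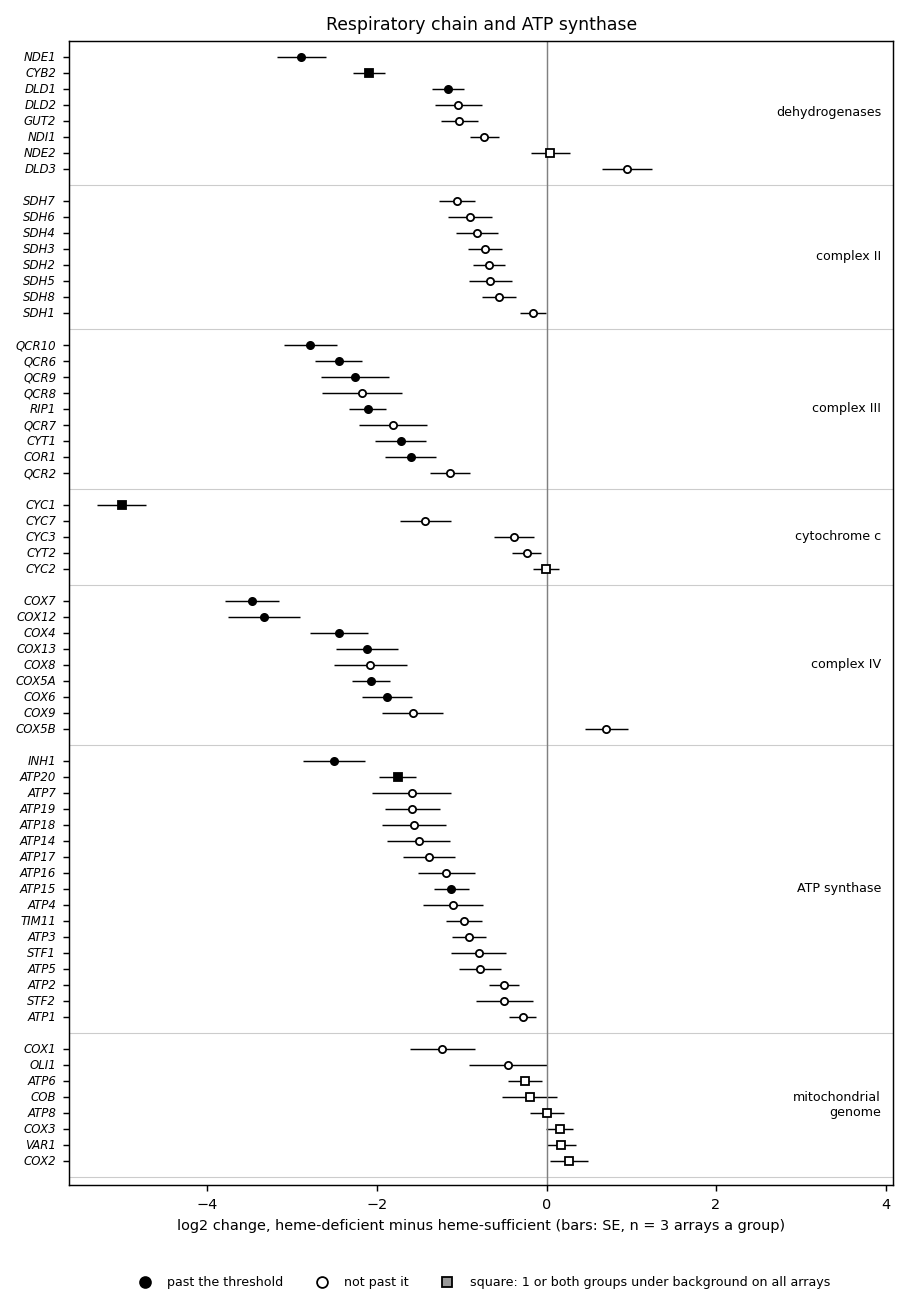
Log2 change, heme-deficient minus heme-sufficient, of each measured gene of the respiratory chain, ATP synthase and the mitochondrial genome, with bars for the SE (n = 3 arrays a group). Filled symbols passed the test and squares mark genes under background on all arrays of 1 or both groups. Complexes III and IV lie between -3.47 and -1.14 apart from *COX5B* at 0.71, complex II between -1.06 and -0.16, and the mitochondrial genome around 0 apart from *COX1* at -1.23.

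Genes for proteins that carry heme or read it were taken as a list of 19, some of which are also in the groups above. Of these 9 fell, none rose, and the median was -1.27, or -0.97 with 4 genes at their bounds. The number that fell was between 3 (without heme-sufficient replicate 3) and 9 (without heme-deficient replicate 1 or 2) in the fits that left out 1 array. *YHB1*, flavohemoglobin, which destroys nitric oxide, had 8.22, 8.47 and 8.99 in heme-deficient cells, against 11.40, 10.47 and 10.83 in heme-sufficient cells, a change of -2.34 ± 0.28 (adjusted p = 0.00765). Its 4 probe sets did not agree: the dimmest changed by 0.19 and the others by -2.06 to -2.34. The dimmest had a mean log2 intensity of 4.50, which is below the background level. *CTT1*, cytosolic catalase T, had 6.01, 5.99 and 5.69 in heme-deficient cells, against 7.53, 7.95 and 7.87 in heme-sufficient cells, and with all heme-deficient arrays under background it was at least 2.68-fold lower (adjusted p = 0.00342). *CYB5*, cytochrome *b*5, an electron donor of sterol and sphingolipid enzymes, had 6.72, 7.61 and 8.33 in heme-deficient cells, against 10.43, 10.50 and 10.29 in heme-sufficient cells, a change of -2.85 ± 0.36 (adjusted p = 0.00868) with -2.88 in round 1 and -3.64 in round 2. *FRE1*, a plasma membrane reductase for iron and copper that holds heme *b*, was at least 1.96-fold lower (adjusted p = 0.0178). Not all heme proteins were low: *CCP1*, mitochondrial cytochrome *c* peroxidase, had a change of 0.59 ± 0.18 (adjusted p = 0.197), *CTA1*, peroxisomal catalase A, was under background on every array (4.29, 4.13 and 4.04 in heme-deficient cells, against 4.18, 4.30 and 4.11 in heme-sufficient cells), and *OLE1*, the fatty acid desaturase with a cytochrome *b*5 domain, had 11.34, 11.50 and 11.33 in heme-deficient cells, against 11.40, 11.40 and 11.37 in heme-sufficient cells. The 95% interval of the *OLE1* difference was -0.32 to 0.33.

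Of 28 genes of oxidative defense 3 fell: *YHB1*, *CTT1* and *SOD2*, the mitochondrial manganese superoxide dismutase, with 5.64, 5.71 and 5.21 in heme-deficient cells, against 6.75, 6.99 and 7.52 in heme-sufficient cells (at least 1.65-fold lower, adjusted p = 0.0185). The cytosolic enzyme *SOD1* changed by -0.21 without passing, and the list's median was -0.23.

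In heme synthesis 1 of 8 genes passed. *HEM13* (YDR044W), coproporphyrinogen oxidase, the first step that needs oxygen, had 10.77, 9.90 and 10.59 in heme-deficient cells, against 8.53, 8.98 and 8.54 in heme-sufficient cells, a rise of 1.73 ± 0.25 (adjusted p = 0.0158), or 3.33-fold, with 0.92 in round 1 and 2.23 in round 2. The other 7 genes of the pathway did not pass. *HEM14*, protoporphyrinogen oxidase, had 8.09, 7.30 and 7.57 in heme-deficient cells, against 6.76, 6.80 and 6.78 in heme-sufficient cells, with no overlap and a change of 0.87 ± 0.21 (adjusted p = 0.111) that passed with the round as a block (adjusted p = 0.0263). *HEM15*, ferrochelatase, changed by 0.57 ± 0.19 (adjusted p = 0.217), also without overlap, against 7.90% of all genes that lay higher without overlap. *HEM1* (0.36), *HEM2* (0.02), *HEM4* (0.04), *HEM12* (0.0012) and *HEM3* (-0.28) had overlapping groups. The *HEM1* probe set read 8.60, 7.68 and 8.04 in heme-deficient cells, against 7.79, 7.49 and 7.94 in heme-sufficient cells, above background on all 6 arrays, and the sources used here do not give the extent of the hem1-Δ100 deletion, so this level does not check the genotype.

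*HMX1*, heme oxygenase, which breaks heme down and frees its iron, fell: it had 6.78, 6.82 and 6.16 in heme-deficient cells, against 7.70, 7.81 and 8.07 in heme-sufficient cells, a change of -1.27 ± 0.22 (adjusted p = 0.0328). *PUG1*, a plasma membrane transporter of heme and protoporphyrin, had a change of 0.36 ± 0.18 (adjusted p = 0.315) with no overlap but near background. Siroheme, the other tetrapyrrole branch, which leaves the pathway before *HEM12* and serves sulfite reductase, had no gene past the test: none of 10 genes of siroheme and sulfate assimilation passed, with a median of 0.04, and *MET8*, the siroheme synthase, had the largest change (0.54 ± 0.27 (adjusted p = 0.309)).

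The risers were led by cell wall mannoproteins of anaerobic growth. *DAN1* (YJR150C) had 13.56, 11.84 and 13.46 in heme-deficient cells, against 6.08, 5.82 and 6.14 in heme-sufficient cells, a change of 6.94 ± 0.42 (adjusted p = 0.000342), with 6.02 in round 1 and 7.45 in round 2. The heme-sufficient mean lay under background, as did 2 of its 3 arrays, and against the background level *DAN1* was at least 107-fold higher. *TIR4* had 13.22, 10.98 and 13.09 in heme-deficient cells, against 8.51, 8.50 and 8.68 in heme-sufficient cells, a change of 3.86 ± 0.53 (adjusted p = 0.0128). In both genes heme-deficient replicate 2 was the lowest of its group and still above every heme-sufficient array. *TIR2*, *TIR1* and *TIR3* changed by 3.11 ± 0.33 (adjusted p = 0.00464), 2.53 ± 0.31 (adjusted p = 0.00765) and 1.92 ± 0.23 (adjusted p = 0.00751). The 7 measured mannoprotein genes had a median of 2.53, 5 rose, none fell, and *DAN4* (1.02) and *PAU23* (0.82) did not pass and rose with the round as a block. The number that rose was between 2 (without heme-sufficient replicate 3) and 7 (without heme-deficient replicate 2) in the fits that left out 1 array.

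The related *PAU* genes encode small seripauperin proteins and are so alike that their probe sets share signal, so single members are uncertain. Only 9 of 22 had a probe set of their own. All 9 had positive changes without overlap (median 1.16), and *PAU13* (1.61 ± 0.31 (adjusted p = 0.0495)), *PAU4* (1.47 ± 0.25 (adjusted p = 0.033)) and *PAU19* (1.12 ± 0.21 (adjusted p = 0.0495)) rose. The count was between 0 (without heme-deficient replicate 3 or heme-sufficient replicate 1, 2 or 3) and 6 (without heme-deficient replicate 2) in the fits that left out 1 array, and 9 with the round as a block. Of 13 wall proteins used in air none passed, the median was -0.01, and the largest changes were 0.36 (*TIP1*) and -0.30 (*CWP1*).

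Among the genes 5 pairs encode an aerobic and a hypoxic isoform of 1 protein. *ANB1* (YJR047C), the hypoxic form of translation factor eIF5A, had 13.02, 12.51 and 13.15 in heme-deficient cells, against 7.47, 8.44 and 7.77 in heme-sufficient cells, a change of 5.00 ± 0.28 (adjusted p = 0.000342), or 32-fold, and 4.07 in round 1 and 5.40 in round 2. Its aerobic partner *HYP2* had 12.79, 12.68 and 12.65 in heme-deficient cells, against 13.39, 13.38 and 13.43 in heme-sufficient cells, a change of -0.69 ± 0.14 (adjusted p = 0.0589) that did not pass and was without overlap. *AAC3*, the hypoxic ADP/ATP carrier of mitochondria, had 9.19, 8.15 and 9.27 in heme-deficient cells, against 6.63, 6.78 and 6.33 in heme-sufficient cells, a rise of 2.29 ± 0.30 (adjusted p = 0.0102), while *PET9*, the main carrier, changed by -0.82 ± 0.18 (adjusted p = 0.0859). *COX5A* fell and *COX5B* did not pass, as given above. *HMG1*, the aerobic form of HMG-CoA reductase, the rate-setting enzyme of the mevalonate pathway, had 8.73, 9.05 and 8.50 in heme-deficient cells, against 10.97, 10.63 and 10.66 in heme-sufficient cells, a fall of 1.99 ± 0.19 (adjusted p = 0.00342) on the log2 scale, and *HMG2*, the hypoxic form, had 10.40, 9.63 and 10.58 in heme-deficient cells, against 9.53, 9.18 and 9.04 in heme-sufficient cells, a change of 0.95 ± 0.27 (adjusted p = 0.158) without overlap. In cytochrome *c* the aerobic *CYC1* fell, and *CYC7*, the hypoxic form, did not pass (-1.43), with 2 of its 3 heme-deficient arrays under background. The difference between the 2 members of a pair was not tested.

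**Figure D3:**
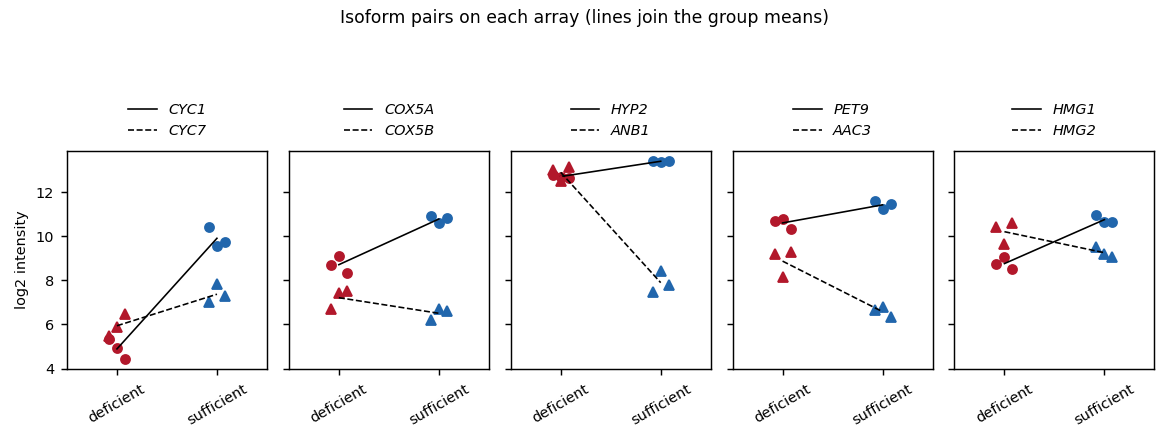
Log2 intensity of 5 isoform pairs on each array, heme-deficient (red) left of heme-sufficient (blue), with circles for the aerobic and triangles for the hypoxic gene and lines joining group means. Levels of different genes are not comparable on this scale. *ANB1*, *AAC3*, *HMG2* and *COX5B* slope down toward heme-sufficient cells, and *CYC7* slopes up with *CYC1*.

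*CYC1* and *ANB1* are neighbours on chromosome X (YJR048W and YJR047C) and had the largest fall and, after *DAN1*, the largest rise. *TIR4* and *TIR2* (YOR009W and YOR010C) are neighbours on chromosome XV and both rose. The neighbours *PUT2* and *RRF1* both fell, as did the neighbours *PRM10* and YJL107C, but *RRF1* and YJL107C were under background on all 6 arrays, and *RRF1* passed in 0 of the 6 fits that left out 1 array. These pairs were named after their values were seen.

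**Figure D4:**
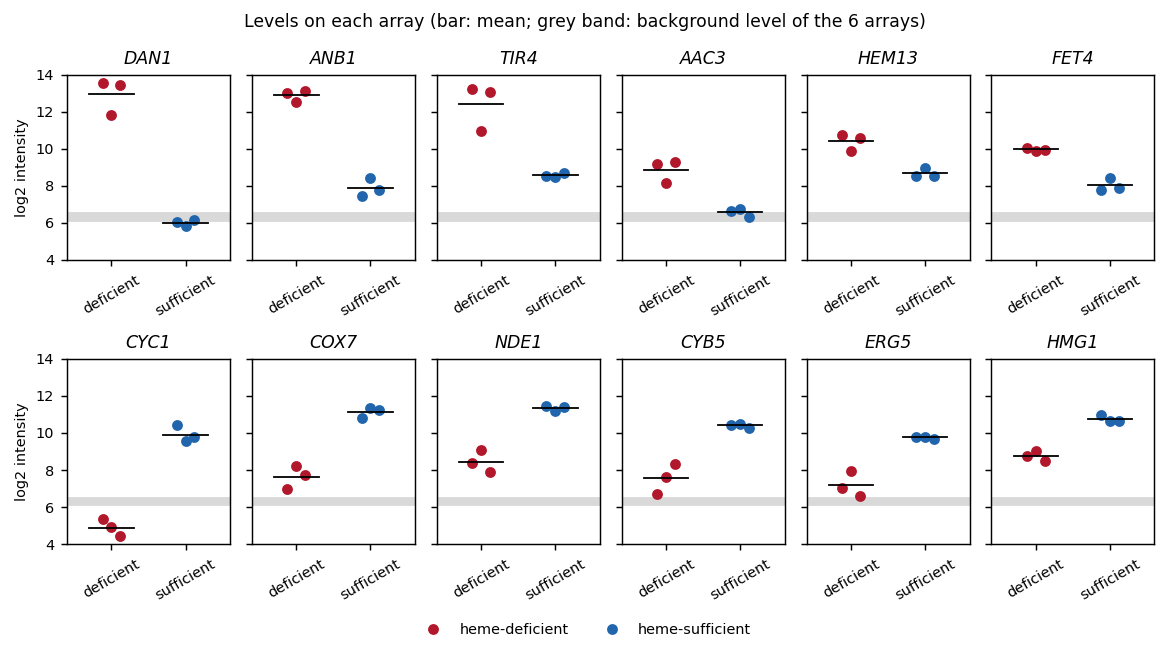
Log2 intensity on each array of 6 genes that rose (upper row) and 6 that fell (lower row), heme-deficient left of heme-sufficient, with bars for the means and a grey band for the background level of the 6 arrays (6.11 to 6.51). In all 12 genes the groups do not overlap, and *CYC1* in heme-deficient cells and *DAN1* in heme-sufficient cells lie at or under the band.

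Sterol synthesis needs heme in 2 cytochrome P450 enzymes and oxygen in several steps. In the early part of the path, up to squalene, *HMG1* and *ERG13*, HMG-CoA synthase (-0.88 ± 0.15 (adjusted p = 0.033)), fell, 9 of 10 genes had negative changes and the median was -0.68. With the round as a block 6 fell, and *HMG2* rose (adjusted p = 0.0469). Of the 7 genes of heme- or oxygen-dependent steps, *ERG5*, the P450 that desaturates the sterol side chain, had 7.02, 7.96 and 6.60 in heme-deficient cells, against 9.77, 9.80 and 9.70 in heme-sufficient cells, a change of -2.56 ± 0.31 (adjusted p = 0.00813), and *CYB5* fell as given above. *ERG11*, the other P450, lanosterol demethylase, had 11.23, 11.21 and 11.37 in heme-deficient cells, against 11.92, 11.69 and 11.94 in heme-sufficient cells, a change of -0.58 ± 0.15 (adjusted p = 0.132) without overlap that fell with the round as a block (adjusted p = 0.0459). *ERG1*, squalene epoxidase, changed by -0.15 (95% interval -0.52 to 0.21). None of 9 genes of other steps passed, with a median of -0.45. *NSG2*, a gene outside the lists whose product binds HMG-CoA reductase, was named after its values were seen and had 7.28, 7.65 and 7.46 in heme-deficient cells, against 9.01, 9.32 and 9.33 in heme-sufficient cells, a change of -1.76 ± 0.17 (adjusted p = 0.00342).

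Of the genes of sterol uptake and storage *HES1* rose and *ARE2* and *YEH1* fell. The number that passed was between 0 (without heme-sufficient replicate 1, 2 or 3) and 7 (without heme-deficient replicate 2) in the fits that left out 1 array. *AUS1* and *PDR11* encode the transporters that take up sterol under anaerobic growth and were named after their values were seen. *AUS1* had 10.47, 8.06 and 10.82 in heme-deficient cells, against 6.98, 6.37 and 6.73 in heme-sufficient cells, a change of 3.09 ± 0.64 (adjusted p = 0.0628), and *PDR11* one of 1.82 ± 0.42 (adjusted p = 0.0919). Neither passed. In both, heme-deficient replicate 2 was the lowest of its group and every heme-deficient value lay above the heme-sufficient arrays, and both rose with the round as a block (adjusted p = 0.00639 each). *HES1*, a sterol transfer protein, had 6.43, 5.82 and 7.48 in heme-deficient cells, against 4.19, 4.36 and 4.28 in heme-sufficient cells and was at least 1.3-fold higher (adjusted p = 0.025). Of its 3 heme-deficient arrays 2 were under background as well, so that bound rests on heme-deficient replicate 3. Of the 2 enzymes that esterify sterol, *ARE1* changed by 1.05 ± 0.28 (adjusted p = 0.135) without overlap, while *ARE2* fell (adjusted p = 0.0205) among values that were all under background (4.51, 4.18 and 3.89 in heme-deficient cells, against 5.35, 5.39 and 5.47 in heme-sufficient cells). *YEH1*, a steryl ester hydrolase, changed by -1.32 ± 0.21 (adjusted p = 0.0251). *PLN1*, a perilipin-like protein of lipid droplets, had 8.40, 9.34 and 7.26 in heme-deficient cells, against 11.39, 11.38 and 11.80 in heme-sufficient cells, a change of -3.19 ± 0.45 (adjusted p = 0.0144), the largest fall after *CYC1*, *COX7* and *COX12*. In fatty acid synthesis none of 23 genes passed, with a median of -0.0039.

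**Figure D5:**
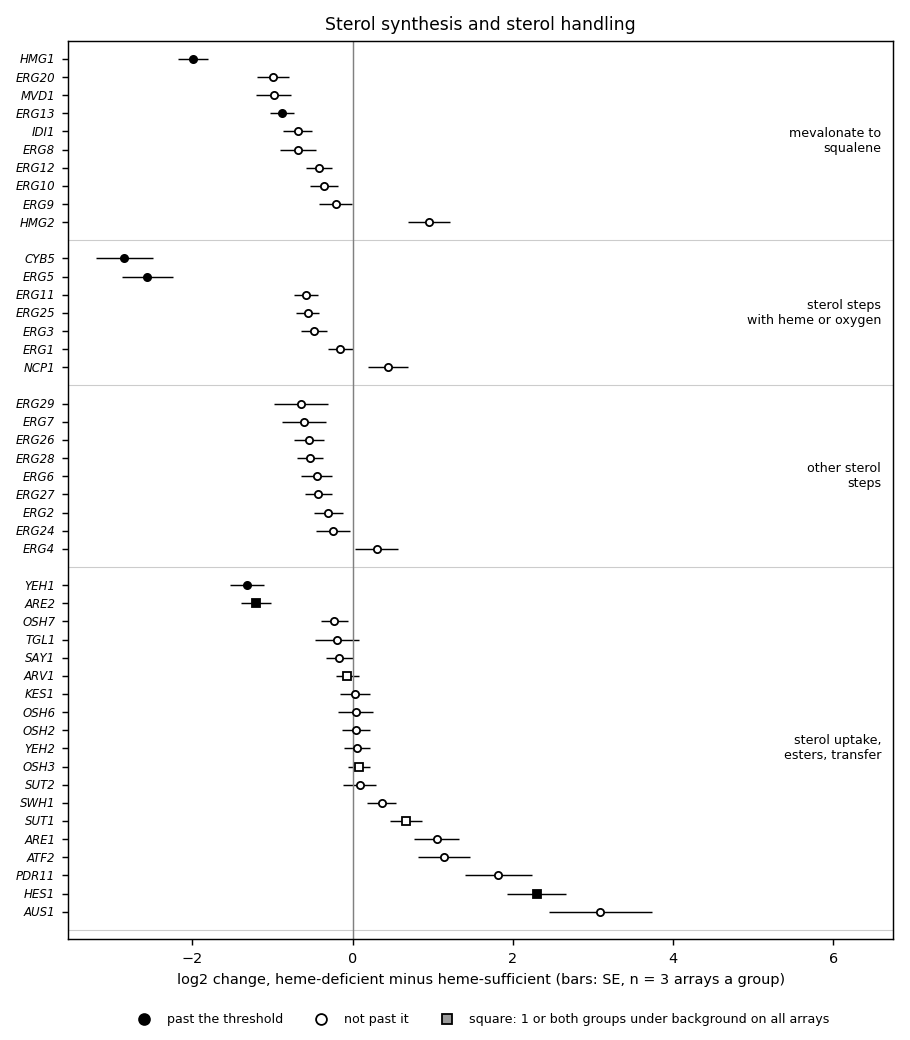
Log2 change, heme-deficient minus heme-sufficient, of the genes of sterol synthesis and handling, with bars for the SE (n = 3 arrays a group). Filled symbols passed the test and squares mark genes under background on all arrays of 1 or both groups. Of the 10 early genes 9 lie left of 0 with *HMG2* to the right, *CYB5* and *ERG5* stand apart near -2.85 and -2.56, and *AUS1*, at 3.09, has the widest error bar.

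Of 26 genes for regulators of the oxygen and heme response 1 passed. *HAP4*, the limiting subunit of the HAP complex, had 5.82, 6.51 and 6.49 in heme-deficient cells, against 7.61, 7.59 and 7.91 in heme-sufficient cells, a change of -1.43 ± 0.22 (adjusted p = 0.0216) with -1.07 in round 1 and -1.95 in round 2. *HAP1* (YLR256W) had 8.22, 8.47 and 8.56 in heme-deficient cells, against 8.37, 8.52 and 8.39 in heme-sufficient cells; the groups overlapped and the 95% interval of the difference was -0.37 to 0.35. *ROX1* had 4.25, 3.68 and 3.26 in heme-deficient cells, against 4.90, 4.73 and 5.52 in heme-sufficient cells, lower without overlap and under background on all 6 arrays (adjusted p = 0.0853). *UPC2*, an activator of sterol uptake and anaerobic genes, had 7.65, 6.94 and 7.81 in heme-deficient cells, against 6.19, 6.48 and 6.42 in heme-sufficient cells, a change of 1.10 ± 0.24 (adjusted p = 0.0774) that passed with the round as a block (adjusted p = 0.0315), and its homologue *ECM22* changed by 0.91 ± 0.29 (adjusted p = 0.195).

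Among other genes of hypoxic growth 3 of 21 rose: *FET4*, *HEM13* and *EUG1*, a protein disulfide isomerase. *FET4*, a low-affinity transporter of iron and other metals, had 10.04, 9.90 and 9.97 in heme-deficient cells, against 7.80, 8.40 and 7.89 in heme-sufficient cells, a change of 1.94 ± 0.19 (adjusted p = 0.00342). *EUG1* was at least 1.09-fold higher (adjusted p = 0.0458). Of its 6 arrays only heme-deficient replicate 3 lay above background, so that bound rests on 1 array. *EUG1* passed in 1 of the 6 fits that left out 1 array. *ADH5* (1.57 ± 0.36 (adjusted p = 0.0887)) and *GPD2*, the glycerol-phosphate dehydrogenase of anaerobic redox balance (1.32 ± 0.30 (adjusted p = 0.086)), did not pass and rose with the round as a block. The list's median was 0.77, or 0.38 with 2 genes at their bounds.

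The iron regulon is a set of genes switched on when iron is short. Of 29 genes *FRE1* and *HMX1* fell and none rose, and the median was 0.15. *FET3*, the high-affinity ferroxidase, had 8.53, 7.87 and 7.33 in heme-deficient cells, against 10.32, 9.09 and 9.12 in heme-sufficient cells, a change of -1.60 ± 0.40 (adjusted p = 0.118), while *SIT1*, a siderophore transporter, had 10.16, 7.96 and 9.37 in heme-deficient cells, against 7.43, 7.07 and 7.35 in heme-sufficient cells, a change of 1.88 ± 0.48 (adjusted p = 0.123). Both were named after their values were seen, had no overlap, did not pass, and passed with the round as a block, in opposite directions. *FTR1*, the permease partner of Fet3, changed by 0.02 (95% interval -0.45 to 0.49). In copper and zinc handling *CTR3*, a copper transporter, had 5.78, 6.20 and 5.13 in heme-deficient cells, against 8.24, 7.65 and 7.96 in heme-sufficient cells and was at least 3-fold lower (adjusted p = 0.00868), and *ZPS1*, a zinc- and pH-responsive cell surface gene, rose by 1.46 ± 0.24 (adjusted p = 0.0303). Genes of iron-sulfur assembly had no member past the test among 23 (median -0.13).

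Ribonucleotide reductase, an enzyme with an iron cofactor, makes the building blocks of DNA, and its genes *RNR3* and *RNR4* rose. *RNR3* had 8.20, 7.64 and 8.21 in heme-deficient cells, against 6.40, 5.73 and 6.10 in heme-sufficient cells, a change of 1.94 ± 0.23 (adjusted p = 0.00765) with 1.91 in round 1 and 1.94 in round 2, and *RNR4* had 11.29, 11.08 and 11.24 in heme-deficient cells, against 10.23, 10.32 and 10.15 in heme-sufficient cells, a change of 0.97 ± 0.15 (adjusted p = 0.0185). *RNR1* changed by 0.65 ± 0.19 (adjusted p = 0.169), with a pass under the round block, and *RNR2* by 0.13 ± 0.15 (adjusted p = 0.629). Of the heme-sufficient arrays 2 lay under background for *RNR3*, which was at least 3.35-fold higher against that level. The probe set of *RNR3* is of a kind that can also bind a like gene. Beside *RNR3* and *RNR4* none of the 29 genes of the cell cycle list passed (median -0.13).

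Of 21 genes of nitrogen use 2 fell, both for proline: *PUT4*, the proline permease, changed by -2.06 ± 0.31 (adjusted p = 0.0185) and *PUT2*, a mitochondrial enzyme of proline breakdown, by -1.04 ± 0.15 (adjusted p = 0.0139). *YPC1*, a ceramidase, fell by 2.11 ± 0.33 (adjusted p = 0.0225) on the log2 scale, the only call among 20 sphingolipid genes. Of the drug transporter list *PDR5* (0.83 ± 0.16 (adjusted p = 0.0495)) and *RTA1* (at least 1.61-fold, adjusted p = 0.0102) rose and *PDR12*, which exports weak acids, fell (-1.39 ± 0.25 (adjusted p = 0.0427)). Of 7 *PDR5* probe sets the one used was the brightest and all 7 had positive changes, of 0.08 to 0.83. In a separate fit over all probe sets the one used did not pass (adjusted p = 0.0755 by limma). *PDR5* passed in 0 of the 6 fits that left out 1 array. *OPT1*, an oligopeptide transporter, rose by 1.89 ± 0.31 (adjusted p = 0.0277). *MRA1*, a gene in no list, changed by -3.03 ± 0.36 (adjusted p = 0.00751), and *ECM13* had 5.65, 6.26 and 5.04 in heme-deficient cells, against 7.73, 8.03 and 8.77 in heme-sufficient cells, at least 3.52-fold lower (adjusted p = 0.0139).

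Marker genes were read as a check of the labels. *STE2*, the receptor of MATa cells, had 9.24, 9.02 and 9.91 in heme-deficient cells, against 9.26, 8.96 and 8.90 in heme-sufficient cells, above background on all 6 arrays. The α-cell genes belong to the list that set the background level and so give no check of their own. Of these the α-factor gene *MF(ALPHA)1* and the α-agglutinin gene *SAG1* lay above that level, with means of 7.39 and 7.16 in heme-deficient cells, against 7.34 and 6.88 in heme-sufficient cells. Of 19 genes of MATa mating none passed (median 0.13). *URA3*, mutant in this strain, changed by -1.06 ± 0.18 (adjusted p = 0.034), and *LEU2* and *ADE1* did not pass.

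Genes for ribosomes made up the largest lists. Of 74 genes of the mitochondrial ribosome *MRP2* fell (-1.68 ± 0.30 (adjusted p = 0.0397)) and the median was -0.49; with the round as a block 32 fell and none rose. Of 83 ribosome biogenesis genes none passed, 75 had negative changes and the median was -0.38, against 29 that fell with the round as a block. The 81 cytosolic ribosomal protein genes had a median of -0.19, none passed, and 16 fell with the round as a block. Over all genes 13.2% fell with that block, and of the 3 lists the 16 of 81 lay nearest to this share. Heme-deficient replicate 1 was lowest in the median member level of all 3 lists (6.73, 7.84 and 11.79), the same array on which the fewest genes lay above background (56.7%). The part of that array in these lists was not tested; without it the medians were -0.30, -0.19 and -0.12. Glycolysis and fermentation (27 genes, median 0.12), glyoxylate cycle and gluconeogenesis (17 genes, 0.18), heat shock (27 genes, -0.0011), general stress (25 genes, -0.15), ubiquinone synthesis (10 genes, -0.000561), biotin (6 genes, 0.11) and amino acid synthesis (61 genes, 0.28) had no call. In all, 30 of the 58 lists had no member past the test, 22 of which had at least 1 with the round as a block. With that block 17.3% of all genes passed, a share that can by itself place 1 call in a list. The count of 22 is therefore no result about these lists.

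The same genes can be set beside oxygen loss and loss of *HAP1* in strain L51, whose arrays are of another type and were normalized apart, so no test spans the 2 sets. L51 is a MATa strain with *HAP1* deleted, and its cells carried a plasmid with *HAP1* (*HAP1* cells) or the empty plasmid (*Δhap1* cells). Of the 23 risers 20 were measured there, and all 20 had a positive mean change in *HAP1* cells after 6 h without oxygen relative to air, with a median of 2.06, against 41.3% positive and a median of -0.10 over 5240 shared genes. Of the 70 fallers 68 were measured, and 61 had a negative mean change, with a median of -0.91, against 58.7% negative over all shared genes. In *Δhap1* cells in air, relative to *HAP1* cells in air, 19 of the 20 risers were positive (median 0.93) and 53 of the 68 fallers negative (median -0.36), against 66.5% positive, 33.5% negative and a median of 0.11 over all. Fewer genes kept 1 direction in all 3 differences of same-numbered arrays. Of the 68 fallers 43 were negative in all 3 without oxygen, against 25.25% of all shared genes. Without *HAP1* 26 of the 68 were, against 7.21%. Of the 20 risers 18 were positive in all 3 in either comparison, against 13.03% without oxygen and 23.05% without *HAP1*. Both L51 comparisons use the same 3 aerobic *HAP1* arrays.

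For single genes the L51 changes are given as the differences of the arrays numbered 1, 2 and 3. *ANB1* changed by 4.68, 3.87 and 3.39 without oxygen and 3.82, 2.12 and 3.41 without *HAP1*, beside 5.00 in heme deficiency, and *CYC1* by -4.50, -3.36 and -2.65 and -3.51, -3.97 and -3.58, beside a heme-deficient level under background. *TIR4*, 3.86 in heme deficiency, changed by 4.07, 2.97 and 1.34 without oxygen and -0.31, -0.18 and 0.24 without *HAP1*. The 7 fallers with a positive mean change without oxygen were *CYB5*, *ERG5*, *ERG13*, *ECM13*, *SCM4*, *MRP2* and *POP6*. The means of *CYB5*, *ERG5* and *MRP2* were positive through array 2 alone. *CYB5* changed there by -0.07, 1.57 and -0.27, *ERG5* by -0.16, 0.55 and 0.00 and *ERG13* by 0.03, 0.23 and 0.08, against -2.85, -2.56 and -0.88 in heme deficiency. *HMG1* changed there by -1.03, -0.15 and -0.61, against -1.99 in heme deficiency. The difference between the heme and oxygen values was not tested.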

How the data were processed

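Total RNA of the 6 MHY100 cultures was read on Affymetrix yeast arrays of an earlier type than the one used for strain L51, per the run records. The authors deposited linear intensities: according to the labels and methods, scanned images were summarized per probe set with RMA (background correction and quantile normalization) after image conversion with GCOS, and the MHY100 arrays were treated apart from the L51 arrays. Of 9335 probe sets 6504 named a single gene, and the brightest on average stood for its gene (5656 genes; 315 had several probe sets). Those naming no gene (2503) or several (328) were tested in a separate fit over all probe sets.

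Intensities were set on the log2 scale and compared with limma 3.58.1 in R 4.3.3 (lmFit and eBayes, two-sided, Benjamini-Hochberg over all genes, threshold 0.05), with no block. The code was tested on simulated data. The number of arrays limits the precision. The p-values set a group difference against the spread between arrays of a group, which limma moderates over all genes. The main fit has no term for the hybridization round. The hybridization round came from the run records; none was read for heme-deficient replicate 3. The title and the source name of 1 heme-sufficient array give different replicate numbers, 1 and 3; it is replicate 1 here.

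The members and gene lists were chosen with earlier results of these data known, and the lists of mitochondrial genes and of both ribosomes after the array annotation was seen. The genes chosen by rule were the 12 largest rises and falls, and members of each list. From a list came up to 4 members past the threshold, otherwise the 2 largest changes. All genes of heme synthesis and breakdown, cytochrome *c*, complexes III and IV, isoform pairs, heme proteins and strain markers were also chosen. Not all of the genes chosen by rule are given in the text. Others named in the text, such as *AUS1*, *PDR11*, *SIT1*, *FET3*, *COA2*, *NSG2* and the remaining genes of the fits that left out 1 array, were chosen after their values were seen. Alternatives changed the scaling, the block, the arrays, an offset, a filter on dim genes, the probe sets used, array weights, the variance model, the size of change and the test. A noise model rebuilt after the study's methods was one of them. L51 values were set beside the heme values as differences of same-numbered arrays, without a test.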

Additional observations from a re-analysis of the deposited data

Results flagged for a closer look

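A signal appeared in probe sets that the comparison of genes did not use. In a fit over all 9335 probe sets, 14 of the 2831 that name no gene or several genes passed the threshold (adjusted p under 0.05 by limma), 8 higher and 6 lower in heme-deficient cells. Of the 8, 6 were shared by members of the *PAU* family, with changes of 1.44 to 1.63. The probe set shared by *DSF1* and *MAN2*, a pair of near-identical genes related to mannitol dehydrogenases, averaged 7.22 in heme-deficient cells, against 5.44 in heme-sufficient cells, a change of 1.78 ± 0.25 (SE, adjusted p = 0.0132 by limma), and its signal cannot be divided between them. The last of the 8 names no gene and changed by 1.01. Among the 6 that were lower, the control probe set of *RIP1* changed by -2.14, and 5 that name no gene changed by -0.98 to -1.74. Single arrays that stand apart were not looked for within a group, since each group has 3 arrays.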

How the results depend on the processing

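None of the 93 changes reversed in any refit of the limma model. With cyclic loess, without the dimmest 25% of genes, with probe sets averaged per gene, with an intensity trend, or with a 2-fold change required, 81 to 95 genes passed. An offset of 50 left 50 genes (10 higher, 40 lower). Array weights, which weighted the heme-deficient arrays 0.297, 2.35 and 0.495 and the heme-sufficient arrays 0.677, 2.51 and 1.70, gave 415 (85 higher, 330 lower). A noise model rebuilt after the study's methods gave 659 (175 higher, 484 lower), and these are not the study's own calls. The hybridization round as a block on 5 arrays gave 981 (237 higher, 744 lower), against 67 on the same arrays with no block; the cause was not tested. With the replicate number as a block 408 genes passed (82 higher, 326 lower), and all 93 stayed past the threshold, but deviations of same-numbered arrays correlated by 0.45, 0.43 and -0.03, so the numbers were not taken as pairs. Leaving out 1 array gave 18 to 132 genes, 4 to 60 higher and 14 to 72 lower, and 18 of the 93 passed each time. Of the genes named, 8 with a change near 0 turned sign. *HAP1* changed by 0.019 with cyclic loess, 0.31 with the mean of its probe sets and 0.0080 with array weights. Array weights also gave -0.19 for *HEM2*, -0.12 for *HEM4*, -0.087 for *HEM12* and -0.15 for *FTR1*. On the 5 arrays of known round *HEM12* changed by -0.030 with no block, and *CTA1* by 0.014 with no block and 0.011 with the block. Leaving out 1 array gave -0.079 to 0.087 for *HAP1*, -0.23 to 0.19 for *HEM2*, -0.14 to 0.21 for *HEM4*, -0.095 to 0.13 for *HEM12*, -0.17 to 0.18 for *FTR1*, -0.11 to 0.014 for *CTA1*, -0.053 to 0.032 for *OLE1* and -0.095 to 0.33 for *MF(ALPHA)1*. At an unadjusted p under 0.05 there were 1056 genes. Of the 93 genes 22 were under background on all heme-deficient arrays and 7 on all heme-sufficient arrays, which leaves at most a bound for their change.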
